A study of Mus musculus with 6 samples.

Results

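The interferon response and antigen presentation genes studied here are 33 genes chosen by symbol, all of them among the 31276 gene symbols of the count table. RNA was sequenced from C57BL/6 mouse brain at postnatal day 14, in 3 libraries labelled PRMT5 olig2cre KO (KO) and 3 labelled wild-type (WT). In KO, Prmt5, which encodes an arginine methyltransferase, was targeted with a Cre recombinase driven by Olig2, a gene of the oligodendrocyte lineage, so the targeting is confined to cells that have expressed Olig2 while the RNA comes from all cells of the brain sample. The labels do not say what the WT mice carry beside the wild-type genotype, or whether libraries of a group came from separate animals. The p-values therefore cover only library-to-library spread, which may be technical. In such bulk RNA, fewer cells of a type and less RNA per cell cannot be told apart.

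Cells sense viral or displaced nucleic acid through receptors such as RIG-I and MDA5 and then release interferons. Interferons bind receptors that signal through JAK kinases to STAT proteins and IRF9, which as a complex bind a promoter element, the interferon-stimulated response element (ISRE). The genes switched on in this way encode antiviral proteins, further sensors and transcription factors, and the machinery that loads peptides on MHC class I molecules for display to T cells. In healthy brain, vessel cells and microglia hold much of the class I transcript, and most neurons keep these genes low.

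The ISRE core, GAAA and GAAA with any 2 bases between them, was searched on both strands in RefSeq promoter windows of GRCm38.p6, from 250 bases before to 50 bases after each start site. Windows were found for 26 of the 33 genes (not for Usp18, Parp9, Rtp4, Ifi27, Dhx58, Parp14 and Zbp1), and 13 of these genes (50%) held the motif, against 3.99% of all 27025 genes with a window. The GAS motif TTCNNNGAA, a palindrome bound by STAT dimers, was in the windows of 6 of the 26 genes (23.1%), against 9.55% of all genes. Matches of the 2 motifs overlapped at Ifitm3 and Bst2, and a match is a string of letters, not a shown binding site. The windows below belong to the 4 genes with a match that had the smallest p for KO against WT. They run 5′ to 3′ on the gene's strand from 170 bases before to 30 bases after the start site, with every ISRE core in capitals.
Gbp3, chr3:142559874-142560073, plus strand: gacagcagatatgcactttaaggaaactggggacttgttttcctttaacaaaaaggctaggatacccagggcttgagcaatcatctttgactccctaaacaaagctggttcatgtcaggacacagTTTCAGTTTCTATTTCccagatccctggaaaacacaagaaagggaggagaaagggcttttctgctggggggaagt
Ifitm3, chr7:141010715-141010914, minus strand: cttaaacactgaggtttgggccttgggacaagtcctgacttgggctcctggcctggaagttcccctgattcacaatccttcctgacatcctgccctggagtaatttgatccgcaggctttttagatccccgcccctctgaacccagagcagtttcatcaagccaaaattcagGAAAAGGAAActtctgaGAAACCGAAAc
Gbp2, chr3:142620493-142620692, plus strand: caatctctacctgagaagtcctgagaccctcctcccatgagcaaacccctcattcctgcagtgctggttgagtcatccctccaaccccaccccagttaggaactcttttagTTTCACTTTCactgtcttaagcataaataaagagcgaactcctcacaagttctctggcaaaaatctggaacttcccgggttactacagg
Ifit3, chr19:34583359-34583558, plus strand: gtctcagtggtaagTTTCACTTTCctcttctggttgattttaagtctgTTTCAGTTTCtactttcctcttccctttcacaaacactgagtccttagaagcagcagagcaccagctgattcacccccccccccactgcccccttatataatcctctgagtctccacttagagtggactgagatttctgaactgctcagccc
In Gbp3 a pair of overlapping cores lay 45 and 39 bases before the start, and in Ifit3 the cores lay 156 and 122 bases before it. In Ifitm3 both cores lay after the start site, at bases 3 and 20. Isg15 held 3 cores within 78 bases before its start, the most of any window of these genes.

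Each library held 15089140 to 16872925 counts. Prmt5 stood at 68.2, 68.4 and 81.6 CPM (counts scaled to a common library total) in KO and at 90.8, 90.4 and 91.8 CPM in WT, so every KO library was below every WT library (log2 fold change -0.32, SE 0.095). Its Benjamini-Hochberg (BH) adjusted p in edgeR was 0.232, and 0.0379 with the replicate number as a block. Summed levels of 7 neuronal and 7 astrocyte markers, abundant in every library, overlapped between groups, while 8 oligodendrocyte lineage markers summed to 873 to 1827 CPM in KO and to 7102 to 9630 CPM in WT. Each of these 8 had every KO library below every WT library, and 7 had a BH-adjusted p under 0.05 in edgeR, among them Sox10, Mbp and Mag. Gabra6, a gene of cerebellar granule cells, was above 5 CPM in KO replicates 1 and 3 and WT replicate 1 and at 0 in the others, and Xist was above that level in 2 KO libraries and 1 WT library. Most low counts were even numbers. Of all counts from 1 to 20, 74.7% were even (73.3 to 76.3% per library), and so were 55 of 66 such counts (83.3%) of the 33 genes. Values this low rest on fewer independent fragments than the count if both reads of a pair were counted, and the counting setting is not given in the sources used here.

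The interferon and antigen presentation genes were low in both groups, and 9 of the 33 averaged under 1 CPM. The 28 that passed the filter on low counts had a median level of 2.68 CPM, against 19.4 CPM for all 16592 genes tested. None was called between KO and WT by edgeR at a BH-adjusted p under 0.05 (0 of 28; over all genes 1.20% were called), and the adjusted p ran from 0.419 to 0.985. Calls were also 0 with the replicate block (3.41% of all genes), with DESeq2 (1.89%), with limma-voom (1.06%) and with limma on the deposited normalized signal (1.19%). At an unadjusted p under 0.05, edgeR gave 5 genes higher in KO (Gbp3, Oasl2, Ifitm3, Rtp4 and Xaf1) and 0 lower. That is 17.9% of 28 on the higher side, where all genes had 4.40% higher and 5.27% lower. Nothing is read from the fits that left out a library, for which the share of all genes at that p is not given. There the count of genes higher was 1 without WT replicate 2 and 2 without WT replicate 3. The count was 3 without any of the 3 KO replicates in turn, and 5 without WT replicate 1. It was 6 with the replicate block (7.24% of all genes were higher at that p), 0 among the libraries with cerebellar transcripts alone (1.34%) and 5 among those without (9.27%). DESeq2 gave 2 such genes (higher in 3.21% of all genes), limma-voom 4 (4.39%) and limma on the normalized signal 3 (4.26%).

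The fitted differences lay between -0.36 and 0.91 on the log2 scale, and none reached 2-fold. Their median was 0.33, against 0.013 for all genes tested, and 20 of 28 (71.4%) were positive, against 52.3% of all genes. These are descriptions of the genes that passed the filter, chosen with earlier results of these data known, and no test was made of them as a group. The 95% interval of the log2 fold change ended below 1 for 13 genes and held 1 for 15. For those 15 a level 2-fold higher in KO was within the error. Among the 13, the interval of Isg15 (-1.13 to 0.83) also held a level 2-fold lower in KO.

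**Figure D1:**
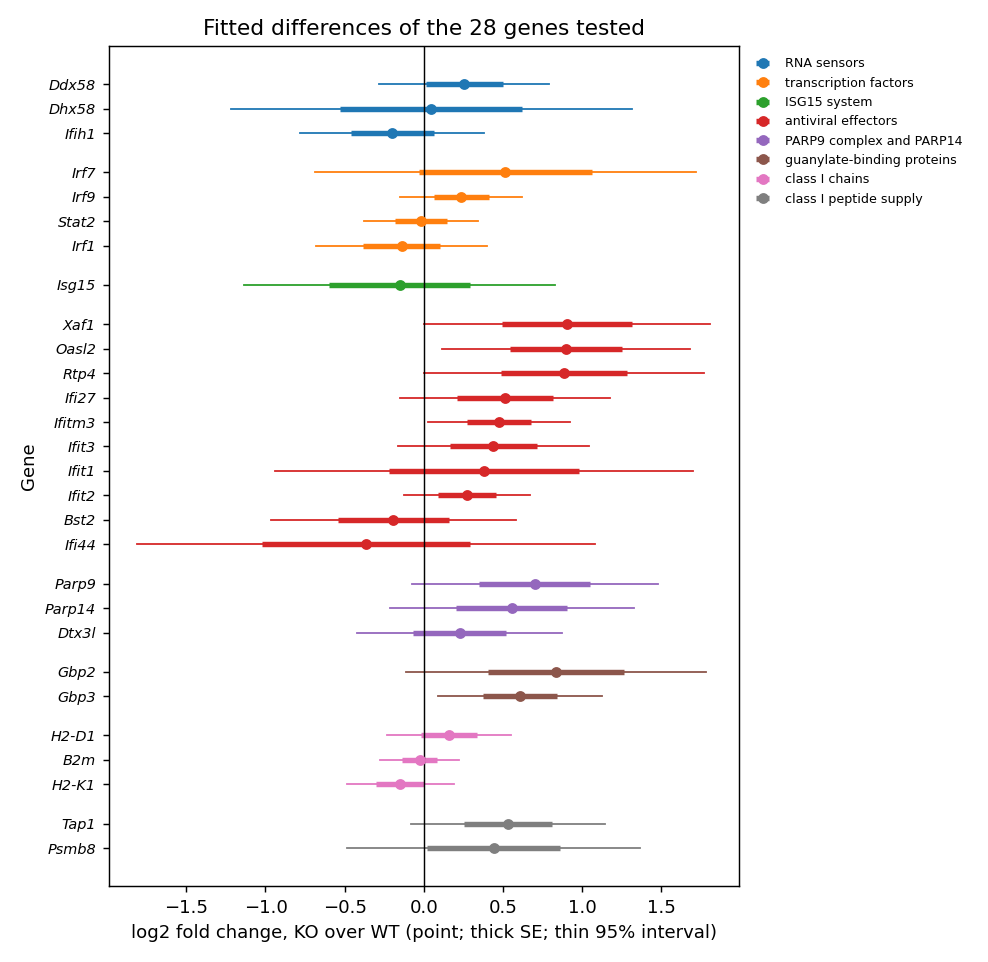
Log2 fold change of KO over WT (horizontal axis) for the 28 genes tested, grouped by role, with the point as the fitted value, the thick line as its SE and the thin line as its 95% interval (3 KO and 3 WT libraries). Class I chains and Stat2 sit close to 0 with short intervals, and Xaf1, Oasl2 and Rtp4 have the 3 largest values with wide ones.

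RNA sensors showed no called difference. Ddx58, which encodes RIG-I, averaged 4.83 ± 1.06 CPM in KO and 4.04 ± 0.78 CPM in WT (SD, n = 3 each), and Ifih1, which encodes MDA5, 2.85 ± 0.35 CPM in KO and 3.28 ± 0.80 CPM in WT (SD, n = 3 each). Dhx58, for the related LGP2, ranged from 0.25 to 1.76 CPM in KO and from 0.68 to 1.26 CPM in WT, so its KO libraries lay on both sides of WT. Zbp1, a sensor of left-handed nucleic acid, had 0 counts in each KO library and 8, 0 and 3 counts in WT replicates 1 to 3. It did not pass the filter. In the edgeR fit without that filter its log2 fold change was -4.92 (unadjusted p = 0.030, BH-adjusted p = 0.512). That value rests on 11 counts, all in WT. A total of 0 counts allows up to 3 counts over the KO libraries, or 0.0624 CPM, from counting error only, and WT replicate 2 was at 0 as well. This limit takes each count as a separate fragment and would be higher if both reads of a pair were counted.

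None of the 4 transcription factors of the response was called, 2 had positive values, and their median was 0.11. Stat2, the STAT partner of IRF9, had 24.8, 28.5 and 19.2 CPM in KO and 28.1, 23.9 and 21.3 CPM in WT. Its groups overlapped almost fully (log2 fold change -0.02, SE 0.16, 95% interval -0.38 to 0.34), with a positive value under upper quartile scaling (0.0082). Irf9, which encodes the DNA-binding part of that complex, averaged 11.1 ± 1.32 CPM in KO and 9.44 ± 1.55 CPM in WT (SD, n = 3 each). Irf7, the amplifier of type I interferon production, had 0.49, 1.51 and 1.65 CPM in KO and 1.31, 0.81 and 0.42 CPM in WT, with the lowest KO library inside the WT range and the others above it. Its 95% interval of -0.69 to 1.72 held 0. Irf1, which responds mainly to interferon gamma, averaged 3.43 ± 0.65 CPM in KO and 3.78 ± 0.58 CPM in WT (SD, n = 3 each).

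Isg15 encodes a ubiquitin-like protein attached to other proteins during the response and is often used as its readout. It had 0.61, 0.82 and 0.64 CPM in KO and 0.75, 1.01 and 0.54 CPM in WT, or 9 to 15 counts a library. The KO values lay inside the WT range (log2 fold change -0.15, SE 0.45, 95% interval -1.13 to 0.83). Usp18, which removes ISG15 and dampens the interferon receptor, had 4 to 7 counts in KO and 2 to 10 in WT and was not tested.

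Among 11 antiviral effector genes, 10 were tested and 8 of these had positive values, with a median of 0.46 and 0 called. Oasl2 (chr5:114896936-114912234, plus strand, mm10), of the oligoadenylate synthetase family, had 2.43, 3.53 and 1.84 CPM in KO and 0.999, 1.49 and 1.69 CPM in WT. All KO libraries were above all WT libraries, by the smallest margin in KO replicate 3 (log2 fold change of 0.90, SE 0.35; edgeR BH-adjusted p = 0.430). Rtp4, an interferon-induced chaperone of membrane receptors, had 2.25, 1.13 and 1.52 CPM in KO and 1.12, 0.68 and 0.84 CPM in WT (log2 fold change of 0.89, SE 0.40, edgeR BH-adjusted p = 0.514). KO replicate 2 and WT replicate 1 were almost level.

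Ifitm3, which blocks the entry of viruses at endosomal membranes, had 5.11, 5.73 and 5.59 CPM in KO and 4.50, 3.51 and 3.79 CPM in WT. The KO libraries were close to each other and all above WT (log2 fold change of 0.48, SE 0.20, edgeR BH-adjusted p = 0.474). Ifit3, one of the tetratricopeptide proteins that bind viral RNA, had 3.77, 4.28 and 4.07 CPM in KO and 3.31, 3.72 and 1.93 CPM in WT. Its groups were separated only by the gap between KO replicate 1 and WT replicate 2 (log2 fold change of 0.44, SE 0.27, edgeR BH-adjusted p = 0.636). Its neighbours on chromosome 19, Ifit2 (0.27) and Ifit1 (0.38), had overlapping ranges, and reads of this family can be shared between its copies.

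Xaf1, an interferon-induced partner of the apoptosis inhibitor XIAP, had 2.01, 1.13 and 1.65 CPM in KO and 0.75, 1.22 and 0.60 CPM in WT. It had the largest fitted value of all (0.91, SE 0.41, edgeR BH-adjusted p = 0.515), although KO replicate 2 was below WT replicate 2. Ifi27 had a value of 0.51 (SE 0.30), with KO replicate 1 inside the WT range. Bst2, which encodes tetherin, and Ifi44 had the negative values of this set (-0.19, SE 0.35, and -0.36, SE 0.66), and Ifi44 had 2 to 14 counts a library. Oas1a had 6 counts in each KO library and 0, 7 and 6 in WT replicates 1 to 3, and it was not tested.

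**Figure D2:**
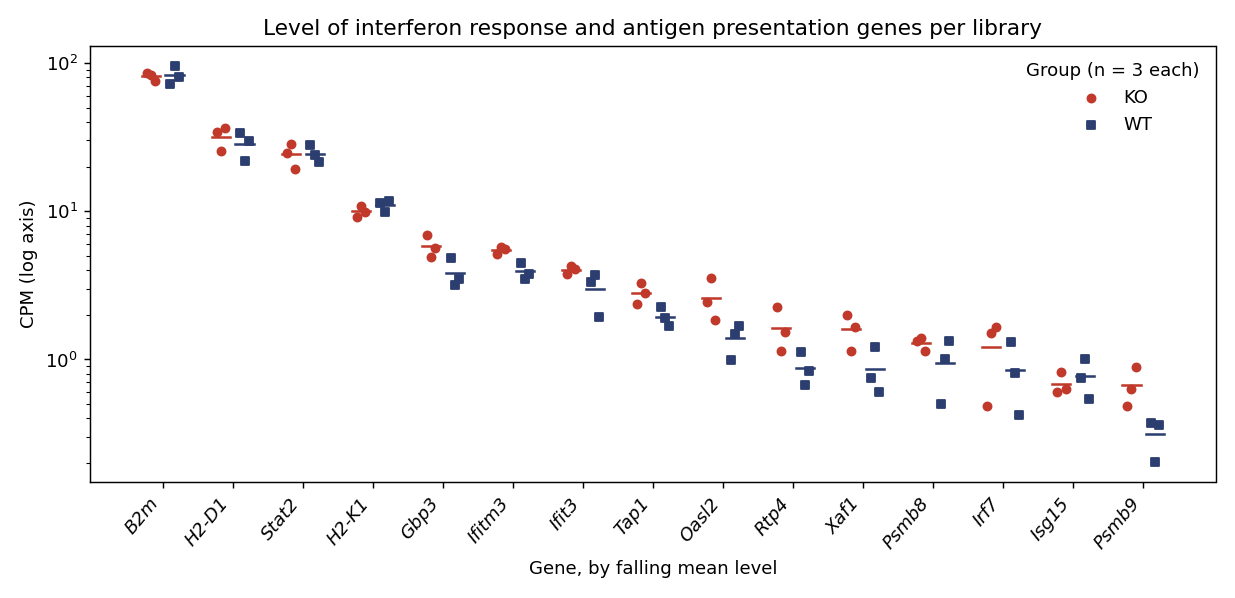
Level in CPM (vertical log axis) of 15 genes in each library, with KO as red circles left of WT as blue squares and each bar as the mean of 3 libraries. The red points sit wholly above the blue ones for Gbp3, Ifitm3, Ifit3, Tap1, Oasl2, Rtp4 and Psmb9, and they overlap for the other 8 genes.

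Parp9 and Dtx3l encode an ADP-ribosyltransferase and the ubiquitin ligase bound to it, and Parp14 encodes a related enzyme. All 3 lie on chromosome 16 and had positive values. Parp9 had 3.95, 4.03 and 2.16 CPM in KO and 3.0, 1.42 and 1.80 CPM in WT, with only KO replicate 3 inside the WT range (0.70, SE 0.35; edgeR BH-adjusted p = 0.556). Parp14 had a value of 0.56 (SE 0.35) and Dtx3l of 0.23 (SE 0.29), both with overlapping ranges. The ends of Parp9 and Dtx3l overlap by 458 bases on opposite strands, so reads there may be shared.

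Gbp3 and Gbp2 encode guanylate-binding GTPases that attack the membranes of pathogens and lie close together on chromosome 3. Gbp3 had the smallest p of the 28 genes. It had 6.93, 4.91 and 5.65 CPM in KO and 4.81, 3.18 and 3.49 CPM in WT, and the lowest KO library was just above the highest WT library (log2 fold change of 0.61, SE 0.24, 95% interval 0.09 to 1.13, edgeR BH-adjusted p = 0.419). Gbp2 had 1.46, 1.51 and 3.05 CPM in KO and 1.62, 1.01 and 0.72 CPM in WT (0.84, SE 0.43), with KO replicate 3 far above the other libraries. Reads can be shared within this family. Cxcl10, a chemokine that draws T cells, was not tested, at 4 to 8 counts in KO and 2 to 10 in WT.

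The 3 class I chains showed no called difference, and their ranges overlapped. B2m and H2-D1 had the highest CPM of the 33 genes. B2m, the invariant chain, had 85.4, 83.0 and 75.2 CPM in KO and 71.8, 95.6 and 80.7 CPM in WT, with every KO library inside the WT range (log2 fold change -0.03, SE 0.11, 95% interval -0.28 to 0.22). Per kilobase of exon it averaged 94.4 CPM in KO and 96.2 CPM in WT, against 12.3 CPM in KO and 11.0 CPM in WT for H2-D1 and 3.39 CPM in KO and 3.75 CPM in WT for H2-K1. H2-K1, a classical heavy chain, had 9.12, 10.9 and 9.85 CPM in KO and 11.4, 9.87 and 11.8 CPM in WT (-0.15, SE 0.15). H2-D1, another heavy chain, had 34.0, 25.3 and 36.1 CPM in KO and 33.7, 21.9 and 29.7 CPM in WT (0.16, SE 0.18). The value of H2-D1 was 0.00090 without WT replicate 2 and 0.30 without KO replicate 2 or WT replicate 1. Their sequences are alike, so how reads were divided between them is uncertain.

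Both tested genes that supply peptides to class I molecules had positive values and neither was called. Tap1, a subunit of the transporter that carries peptides into the endoplasmic reticulum, had 2.37, 3.28 and 2.79 CPM in KO and 2.25, 1.89 and 1.69 CPM in WT. KO was above WT throughout, by little for KO replicate 1 (log2 fold change of 0.53, SE 0.28, edgeR BH-adjusted p = 0.572). Psmb8, a catalytic subunit of the immunoproteasome, had 1.34, 1.39 and 1.14 CPM in KO and 0.50, 1.01 and 1.32 CPM in WT, with overlap (0.44, SE 0.42). Its log2 fold change was 0.14 without WT replicate 1 and 0.77 without WT replicate 3. Psmb9, another such subunit, had 8, 10 and 14 counts in KO and 6, 3 and 6 in WT. Those groups did not overlap, but the counts were too few for the filter. Psmb9 and Tap1 lie head to head on chromosome 17, where their annotated exons overlap by 212 bases, so reads there may be shared.

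Of the 28 genes tested, 6 had every KO library above every WT library (Ifit3, Oasl2, Rtp4, Ifitm3, Gbp3 and Tap1), or 21.4%, and 0 had the reverse, where all genes had 8.02% above and 7.99% below. The genes did not peak in the same library. The highest level was in KO replicates 1, 2 and 3 for 5, 11 and 6 genes, and in WT replicates 1, 2 and 3 for 0, 5 and 1. The lowest was in a KO library for 8 genes and in a WT library for 20. The shares over all genes tested are not given, so no difference between groups is read from these counts. Rtp4, Xaf1, Gbp3, Parp14 and Dtx3l peaked in KO replicate 1, Oasl2, Parp9, Ddx58, Stat2 and Irf9 among others in KO replicate 2, and Gbp2, Irf7, Ifi27, Ifi44, Ifit2 and H2-D1 in KO replicate 3. The median deviation from the mean of all libraries was 0.065, 0.18 and 0.17 on the log2 scale in KO replicates 1 to 3. It was -0.038, -0.12 and -0.15 in WT replicates 1 to 3. Over all genes tested, the medians were 0.006 to 0.008 in KO and 0.001 to 0.008 in WT.

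**Figure D3:**
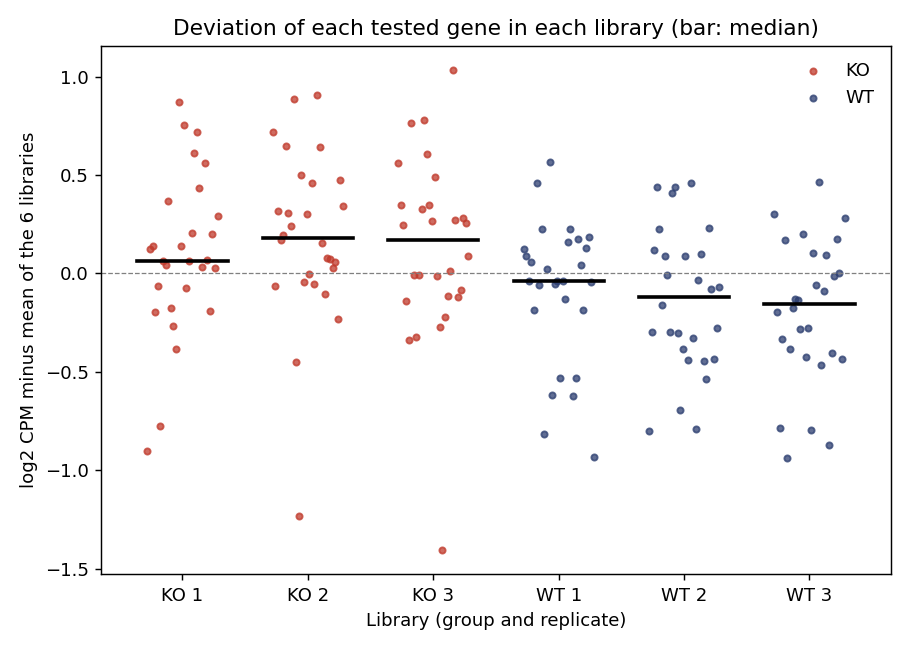
Log2 CPM of each of the 28 tested genes minus its mean over the 6 libraries (vertical axis) in each library, KO in red and WT in blue, with the black bar as the median. The KO medians run from 0.065 to 0.18 and the WT medians from -0.15 to -0.038, and single genes spread far more widely in every library.

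Other measured differences moved with the groups. The 9 meningeal fibroblast markers summed to 370 to 599 CPM in KO and 250 to 288 CPM in WT. Of them 8 had positive values, and 5 were called higher (Col3a1, Lum, Col1a1, Col1a2 and Slc6a13). The 7 markers of border macrophages, which sit in the meninges and around vessels, summed to 15.9 to 17.7 CPM in KO and 9.19 to 15.1 CPM in WT, with 0 called. The 12 microglial markers summed to 470 to 537 CPM in KO and 416 to 510 CPM in WT. The 9 endothelial markers summed to 155 to 181 CPM in KO and 167 to 173 CPM in WT, and both sums overlapped. Values were positive for 11 of 12 microglial markers (median 0.14, 0 called) and 6 of 6 tested border macrophage markers (median 0.43). For endothelial markers 5 of 9 were positive (median 0.002, 0 called), and over all genes 52.3% were. The 10 markers of T, B and NK cells summed to at most 2.46 CPM in any library, with Cd3d at 0 in all, and 6 markers of neutrophils and monocytes to at most 3.43 CPM. Red cell (229 to 367 CPM in KO, 243 to 362 CPM in WT) and choroid plexus markers (529 to 944 CPM in KO, 403 to 577 CPM in WT) overlapped. The part of these cell types in the values above was not tested. Shorter genes lay higher in KO replicate 3 (correlation of deviations with log2 exonic length across genes 0.12, -0.082 and -0.28 in KO replicates 1 to 3, against 0.055 to 0.14 in WT), and the 28 genes had a median exonic length of 3579 bases against 4391 for all genes tested. With offsets adjusted for length their median log2 fold change was 0.31. Among the libraries with cerebellar transcripts (KO replicates 1 and 3 against WT replicate 1) it was 0.12 and among those without (KO replicate 2 against WT replicates 2 and 3) 0.39. Each of these splits, chosen after seeing the data, leaves 1 library in a group, which is assumed to vary like the others. In the split with KO replicate 2 alone as KO, 1 of the 28 genes (Parp9) was below 0.05 in edgeR's BH-adjusted p, a smaller share than the 7.37% of all genes, and nothing is read from it.

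In the rest of the pathway edgeR called 0 of 97 genes tested (1.20% of all genes). In either direction 8 had an unadjusted p under 0.05, where 9.67% of all genes did. By direction, 4 other interferon-stimulated genes and 3 other class I pathway genes were higher in KO, and 1 other interferon-stimulated gene was lower. Over all genes 4.40% were higher and 5.27% lower at that p. Interferons themselves were not detected. All 11 interferon genes looked up, among them Ifnb1, Ifna4 and Ifng, had 0 counts in all 6 libraries. With each count as a separate fragment, this allows up to 0.0314 CPM each over the libraries together, and more if both reads of a pair were counted. Receptor and JAK-STAT genes were expressed and had 0 of 15 called, 0 at an unadjusted p under 0.05 and a median of -0.093. Ptpn11, a phosphatase that also acts on this pathway (-0.23, SE 0.11), and Pias1, an inhibitor of STAT signalling (-0.17, SE 0.09), had the smallest p. Among 22 genes of nucleic acid sensing 0 were called, 0 had an unadjusted p under 0.05, and the median was 0.014. Mavs, the adaptor of RIG-I and MDA5 (-0.23, SE 0.17), and Irf5 (0.16, SE 0.13) came first by p.

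**Figure D4:**
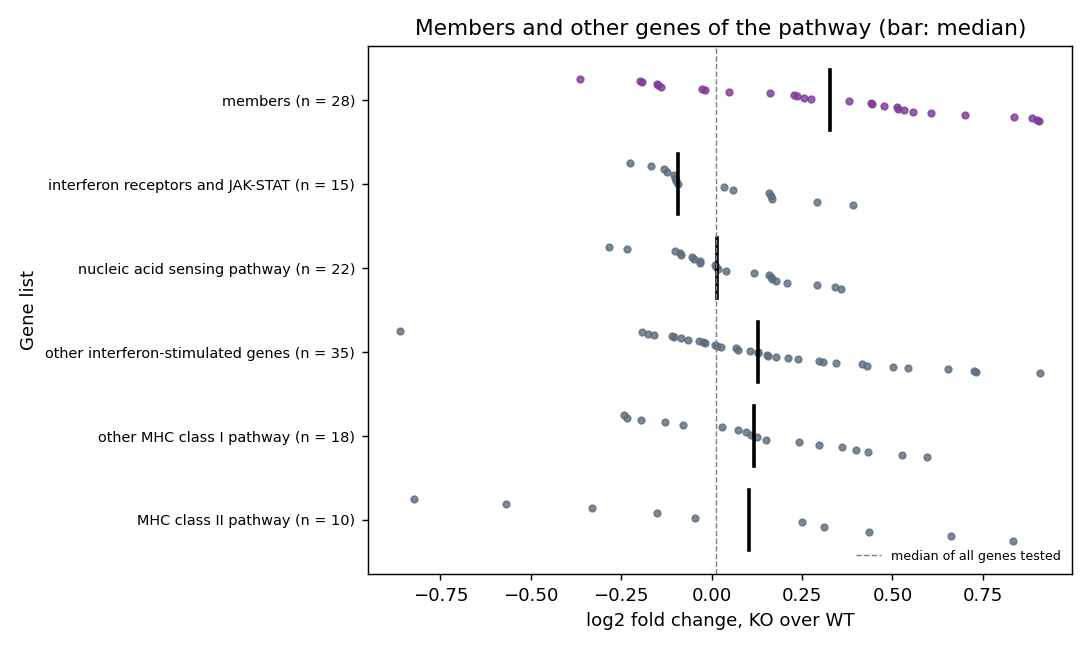
Log2 fold change of KO over WT (horizontal axis) for the members and for the tested genes of 5 other lists, 1 point a gene, with the black bar as the list's median and the dashed line as the median of all genes tested. List medians run from -0.093 to 0.33, and every list holds points on both sides of 0.

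Other interferon-stimulated genes had 0 of 35 called, with 4 higher and 1 lower at an unadjusted p under 0.05 and a median of 0.13. All genes had 4.40% higher and 5.27% lower at that p. Ifitm2, a neighbour and near relative of Ifitm3, had 10.9, 12.8 and 9.66 CPM in KO and 6.62, 7.10 and 6.50 CPM in WT. All KO libraries stood clear of WT (0.73, SE 0.17, edgeR BH-adjusted p = 0.0872). Ifitm2 was called by edgeR with the replicate block (adjusted p = 0.0178) and by DESeq2 (adjusted p = 0.0437). In those fits 3.41% and 1.89% of all genes were called, and the pairing behind the block is an assumption. Ifitm2 was not called by limma-voom (adjusted p = 0.107) or by edgeR with a sex term (adjusted p = 0.205). With each library left out, its edgeR adjusted p ran from 0.0869 to 0.376. Its edgeR adjusted p was 0.0838 with the block and length-adjusted offsets together, and 0.222 with those offsets alone. Parp12, an antiviral ADP-ribosyltransferase, had 6.32, 5.86 and 6.99 CPM in KO and 3.31, 3.51 and 4.69 CPM in WT, also without overlap (0.73, SE 0.21, edgeR BH-adjusted p = 0.220). Gbp7 (0.54) and Ifi35 (0.91) were the other genes higher at that p. Mx2, a dynamin-like antiviral GTPase, was the gene lower at it, with 0.61, 1.13 and 0.76 CPM in KO and 1.62, 1.62 and 1.32 CPM in WT (-0.86, SE 0.38, edgeR BH-adjusted p = 0.498). Of these 35 genes, 24 had positive values, where 52.3% of all genes did. Fitted values within this response thus had both signs, with Mx2 negative beside Ifitm2 and Parp12. Isg15 was negative too, but its counts allow no firm direction.

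Other class I pathway genes had 0 of 18 called, with 3 higher and 0 lower at an unadjusted p under 0.05 and a median of 0.12. The shares of all genes at that p were 4.40% higher and 5.27% lower. Fcgrt, a class I-like receptor for IgG, had 14.1, 13.9 and 13.3 CPM in KO and 8.43, 10.2 and 10.1 CPM in WT, with a wide gap between the groups (0.53, SE 0.14, edgeR BH-adjusted p = 0.180). Psme1, an activator subunit of the proteasome (0.40, SE 0.15), and Tap2, the partner of TAP1 (0.60, SE 0.23), also had KO above WT in every library. Class II genes had 0 of 10 called and 0 at an unadjusted p under 0.05, with a median of 0.10. Ciita, the coactivator of class II genes, had 1.52, 1.32 and 0.57 CPM in KO and 2.0, 2.10 and 1.99 CPM in WT, below WT in every KO library (-0.82, SE 0.38, edgeR BH-adjusted p = 0.527). Ifi30, a lysosomal reductase that helps class II processing, had a value of 0.43 (SE 0.24).

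Among tested members with a promoter window, those with and without an ISRE core match had about the same median difference. The 11 tested members with a match had a median log2 fold change of 0.26, with 6 positive. The 12 with a promoter window and no match also had 0.26, with 9 positive. Tested members without a window are in neither set (Rtp4 0.89, Parp9 0.70, Parp14 0.56, Ifi27 0.51 and Dhx58 0.05). A window without this exact string may still hold a variant of the element, so a link to the ISRE was not tested. Over all genes, the 403 tested with an ISRE core had a median of 0.024 and 1.24% called, against 0.011 and 1.34% for the 10907 with a window and no match.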

How the data were processed

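RNA of 6 mouse brain samples was measured, 3 KO and 3 WT, grouped by their titles. Trizol RNA was made into TruSeq mRNA libraries read from both ends, per the labels' protocols. The submitters' processing notes name STAR 2.3.0e, Trimmomatic 0.32, DESeq2, FastQC 0.11.2 and featureCounts 1.5.0, and the build mm10. The authors deposited raw counts per gene symbol, and a normalized signal that equals the count divided by 1 factor per library. Strand and pair settings of the counting are not given in the sources used here.

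The members and lists were chosen with earlier results of these data known. Counts were tested with edgeR 4.0.16 in R 4.3.3 (filterByExpr, TMM, glmQLFit and glmQLFTest, 4 residual degrees of freedom), with p-values adjusted by Benjamini-Hochberg over the 16592 genes tested and calls at 0.05. CPM use TMM-scaled totals. DESeq2 1.42.0 and limma 3.58.1 were alternatives, with log2 of the deposited signal plus 1 in one of them. The steps were tested on simulated data. Libraries of a group differed by 6.75 to 27.4 times the counting noise, so none was taken as a duplicate. Deviations of same-numbered KO and WT libraries correlated at 0.351, 0.334 and 0.177 across genes, all over 0.1, so the numbers were taken as pairs from the data, not the labels. Over the members alone the correlations were -0.27, -0.341 and -0.437. Values for differently numbered libraries are not given, and KO and WT replicate 1 both held cerebellar transcripts, whose part in this was not tested. The pairing is thus an assumption. The fit reported as the result has no block, and the block is an alternative. Positions and exonic lengths are from GENCODE M21 (mm10).

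Values per library are given for genes with an unadjusted p under 0.05, with groups that did not overlap, or on a short list of central genes. Of each other pathway list, the 2 genes with the smallest p are named, and of the marker lists, called genes. Some items of these lists are not reported here. Further genes named were picked with their values known.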

Additional observations from a re-analysis of the deposited data

How the results depend on the processing

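Of the 28 genes tested, 0 were called in the fit of all libraries, and 0 in every other setting (22 to 33 genes tested) except the libraries without cerebellar transcripts alone. There 1 of 28 was (Parp9), with a single KO library and 7.37% of all genes called, so nothing is read from it. Their median log2 fold change of 0.33 stayed positive in all settings. It was 0.44 with only genes at 1 CPM or more in 3 libraries (fewer genes tested), 0.26 with limma-voom, 0.26 with limma on the deposited signal, 0.12 among the libraries with cerebellar transcripts alone, and 0.30 to 0.33 when each library was left out. The cause of the other shifts was not tested. With the replicate block the median was 0.30 and 0 of 28 were called. Pathway genes called were 1 (Ifitm2) with DESeq2, with the replicate block, and with cerebellum term and replicate block together, 0 with length-adjusted offsets and block, and 3 (Ifitm2, Ptpn11 and Ticam1) among the libraries without cerebellar transcripts. The block changed no other call among these genes. Over all genes, 199 were called, 315 with DESeq2, 566 with the replicate block, 535 with cerebellum term and block, 448 with length-adjusted offsets and block, 129 with a sex term, 1254 among the libraries without cerebellar transcripts, and 100 to 305 when each library was left out (305 without KO replicate 1, 132 without KO replicate 3, and 126, 110 and 100 without WT replicates 1, 2 and 3). Halving the counts and the 2 fits on part of the libraries were added after seeing the data, and with halved counts the median was 0.34 over the 22 genes left.

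Values close to 0 changed sign, and so did that of Irf7, which was 0.52 in the fit of all libraries. Stat2 had 0.00822 with upper quartile scaling, 0.032 with cerebellum term and block, 0.00437 with length-adjusted offsets, 0.333 among libraries without cerebellar transcripts, and -0.155 to 0.122 with each library left out. B2m had 0.0368 with the cerebellum term, 0.0221 with the block added, 0.155 among libraries with cerebellar transcripts, and -0.119 to 0.0865 with each library left out. Irf7 had -0.177 with cerebellum term and block and -0.303 among libraries with cerebellar transcripts. Isg15 had 0.0867 among libraries without them and -0.357 to 0.0867 with each library left out. H2-K1 had 0.00598 and H2-D1 -0.0355 among libraries without them. H2-D1 had 0.000903 to 0.301 and Psmb8 0.136 to 0.767 with each library left out, and Psmb8 had 1.29 among libraries with cerebellar transcripts. Genes at 1 to 20 counts a library, such as Isg15, allow no firm direction at this depth.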
